A study of Mus musculus with 20 samples.

Results

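By the scanner software's log ratios, 120 of 42006 array probes had a footpad signal at postnatal day 5 (P5) that was lower in Tabby than in wild-type (WT) mice. They had no such deficit in adults on that scale. On the scale used for the tests below, 22 of them had a P5 difference (Tabby minus WT) above -0.5. An adult difference of -0.5 or less was seen there in 2. The members were chosen by their P5 and adult values in the scanner software's log ratios. The rule asked for a mean log2 difference (Tabby minus WT) of -1 or less at P5, both Tabby P5 arrays below both WT P5 arrays, a processed footpad signal of at least 100 on both WT P5 arrays, and an adult difference above -0.5. Of the 628 probes with a P5 difference of -1 or less, 586 had the arrays apart, 197 of those also had the signal and 121 also met the adult limit. Of 4 probes left out by name, 1 met the rule, which gave the 120 members. Because the P5 and adult arrays chose the members, values at those stages are given as a description, with no test. The arrays of the embryonic stage E17.5 and of postnatal days 1 and 3 (P1, P3) played no part in the choice, and the tests compare them alone. The spread behind each test was estimated over all 20 arrays, so the P5 and adult arrays enter its error.

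The study measured total RNA of footpad skin, dissected under a microscope, of WT and Tabby mice, from embryos (E17.5), pups (P1, P3 and P5) and adults of postnatal day 56, all labelled as strain C57BL6/J. Each of the 10 groups had 2 arrays, labelled as biological replicates, which gives 20 arrays. Footpad RNA was labelled with Cy3 and hybridised against a common Cy5 reference, a pool of RNA from 11 mouse cell lines mixed with RNA of an embryonic stem cell line. The series concerns ion channels, for potassium and chloride, of the eccrine sweat gland. Values are log2 ratios of footpad over reference unless said otherwise, and bulk skin cannot tell fewer cells of a type from less RNA per cell.

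Tabby mice carry a mutation of Eda, which encodes ectodysplasin, a signal of the tumour necrosis factor family that epithelial appendages need in order to form. Eccrine sweat glands of mice lie in the footpads, and Tabby footpads are known to lack them, while hair types and other skin glands are also altered. In the first days after birth the footpad epidermis, its sweat gland ducts and coils and the hair follicles of the neighbouring skin all mature. The files name probes by number only and pair none of the 120 with a gene, so no gene, pathway or cell type marker is named here and the labelled tissue could not be checked against its markers.

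The probe sequences of a part of the set have a feature in common. Of the 120 members, 12 (10%) held 5 or more cysteine codons (TGC or TGT) in a reading frame of the 60-base probe with no stop codon before its last codon, against 122 (0.29%) of all 42006 probes. With 8 or more such codons there were 6 members (5%) among 7 probes on the whole array (0.0167%). Proteins with runs of cysteine are known from several families, among them the keratin-associated proteins of the hair shaft and the metallothioneins. Which family, if any, these probes read was not tested. Of the members with 6 or more codons, the 8 with the most negative P5 differences are printed 5' to 3' as the scanner files give them. The cysteine codons are in capitals, to show how densely they lie.
Z00045261-1: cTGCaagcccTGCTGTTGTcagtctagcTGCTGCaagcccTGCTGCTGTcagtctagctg
Z00076571-1: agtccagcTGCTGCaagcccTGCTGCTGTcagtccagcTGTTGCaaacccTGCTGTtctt
Z00028279-1: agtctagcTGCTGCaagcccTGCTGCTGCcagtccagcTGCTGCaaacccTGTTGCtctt
Z00056322-1: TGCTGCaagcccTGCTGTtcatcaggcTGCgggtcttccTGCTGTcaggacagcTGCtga
Z00060912-1: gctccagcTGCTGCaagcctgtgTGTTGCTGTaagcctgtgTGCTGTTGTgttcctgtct
Z00025984-1: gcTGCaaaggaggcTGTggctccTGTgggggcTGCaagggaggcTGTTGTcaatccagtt
Z00066950-1: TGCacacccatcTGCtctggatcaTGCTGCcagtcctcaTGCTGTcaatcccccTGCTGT
Z00044245-1: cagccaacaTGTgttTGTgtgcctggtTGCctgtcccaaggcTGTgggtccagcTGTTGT

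The longest run that 5 members had in common was TGCTGCAAGCC, which holds 2 cysteine codons. It was present on the given strand in 5 probes of the whole array (0.0119%), and all 5 were members: Z00045261-1, Z00076571-1, Z00028279-1, Z00056322-1 and Z00060912-1. Its complement on the other strand was in none of the 42006 probes. The codon count and this run were chosen after the sequences and values had been seen, so the shares are a description. Repeats make these probes alike: Z00045261-1 shared an exact run of 29 bases with Z00076571-1 and of 28 bases with Z00028279-1, and the last 2 shared 23 bases. They can therefore hybridise to the same transcripts and are not independent of each other. The cleavage signal AATAAA, a common element near transcript ends, was in 9.17% of members and 10.1% of all probes, counting both strands. The median share of G and C was 45.0% in the members and 43.3% in all probes.

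Over the 120 members, the WT signal stood out at P5. The median footpad signal (log2 Cy3) was 8.16 and 8.02 on the WT P5 arrays, 7.10 and 7.01 at P3, and between 6.77 and 6.96 on the WT arrays of the other stages. On the Tabby arrays it stayed between 6.74 and 6.99 at all 5 stages. The median reference signal (log2 Cy5) lay between 6.42 and 6.68 on all 20 arrays. All 120 members were well above background on both WT P5 arrays, where the choice required a signal, while 90 were so on both Tabby P5 arrays and 25 on neither. All 120 passed the filter of at least 2 arrays above background, but 7 of them passed through the WT P5 arrays alone, and 63 were above background on all 20 arrays.

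**Figure D1:**
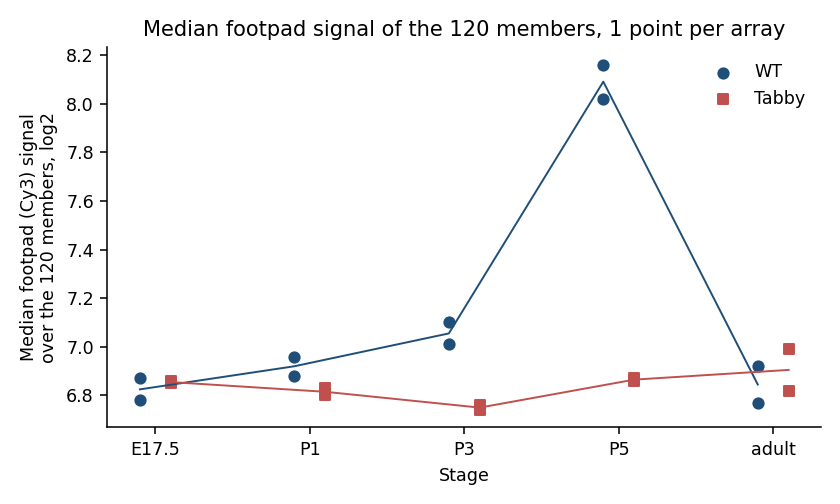
Median footpad (Cy3) signal over the 120 members on a log2 scale, by stage, with 1 point per array and lines through the means of the 2 arrays (WT circles, Tabby squares). The WT P5 arrays, at 8.16 and 8.02, lie above the rest, and the choice of members used that stage.

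The working description of the set as a transient signal covered only part of its members. The mean WT ratio at P5 was at least 1 log2 unit above the WT adult mean in 60 members, within 1 unit of it in 54, and at least 1 unit below it in 6. It was at least 1 unit above the WT P1 mean in 56 members, and above both P1 and adult by that much in 46. The 6 members that were higher in WT adults were Z00022365-1, Z00061235-1, Z00022669-1, Z00027028-1, Z00074580-1 and Z00034344-1. In 21 members the Tabby adult mean lay at least 1 unit above the Tabby P5 mean. The rule favoured a bright WT P5 signal and shares over all probes were not counted. These counts therefore describe the set and do not test whether its signal is transient.

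The depth of the P5 deficit depends on the scale. With background correction by normexp (offset 50) and loess in place of the scanner software's ratios, the P5 difference was -1 or less in 63 members and above -0.5 in 22. Those 22 had processed WT P5 signals of 102.7 to 1663, against a median of 1142 in the 63. Some of them had high ratios in both genotypes, such as Z00036788-1 with means of 3.82 in WT and 3.68 in Tabby. Why the scales part was not tested. Z00023907-1 is of this kind, with a rule difference of -2.09 but ratios of 1.96 and 2.00 in WT and 1.53 and 2.25 in Tabby, so that its groups overlap. At the other end, 32 members were at least 4-fold lower in Tabby at P5 on that scale. All values below are on it.

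Before the comparisons, 1 array needs a remark. The log2 ratios of Tabby E17.5 replicate 2 had an interquartile range of 0.50 over the 32124 probes tested, against 0.88 to 1.02 on the other 19 arrays. Each stage was hybridised on a slide of its own, with WT at its first 2 positions and Tabby at the last 2. Stage and slide, and genotype and slide position, cannot be told apart.

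At P3, 2 days before the stage that chose them, 21 of the 120 members were already lower in Tabby (limma, Benjamini-Hochberg adjusted p under 0.05), against 0.221% of all probes tested. None was higher. Of the 21, 16 were above background on both Tabby P3 arrays, and these were between 1.52-fold and 31.1-fold lower, with a median of 2.48-fold. Another 2 were above background on 1 Tabby P3 array and 3 on neither. The median difference over the 120 members was -0.23, and over all probes 0. Both Tabby P3 arrays lay below both WT P3 arrays in 74 members, and 27.8% of all probes tested did so. With the P3 arrays alone in the fit, 29 of the 120 members were called, against 0.741% of all probes tested. The count rested on the P3 arrays themselves: leaving out WT P3 replicate 1 gave 6 and leaving out WT P3 replicate 2 gave 11, while the Tabby P3 arrays left out in turn gave 7 (replicate 1) and 9 (replicate 2).

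**Figure D2:**
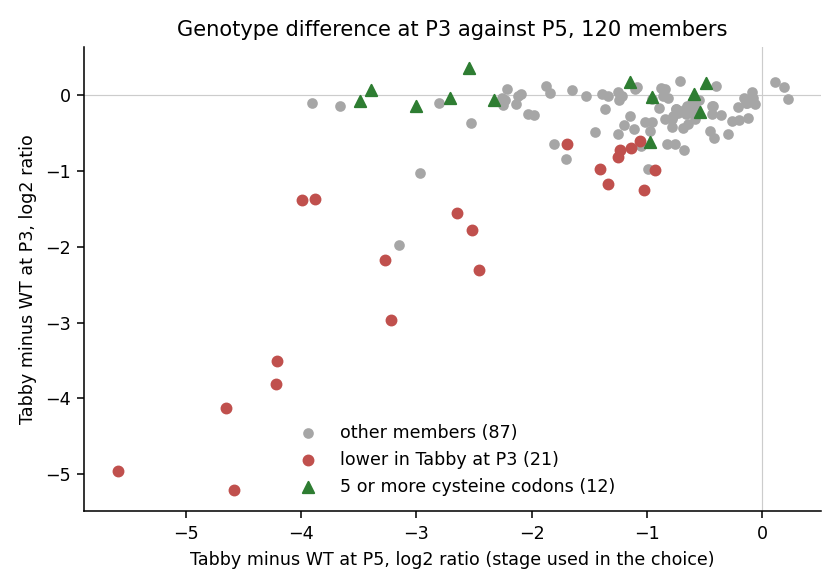
Tabby minus WT at P3 (vertical) against the same difference at P5 (horizontal, the stage used in the choice), both as log2 ratios, with 1 point per member. The 21 members lower in Tabby at P3 run down to -5.21, while the 12 with 5 or more cysteine codons lie between -0.62 and 0.35 at P3 whatever their P5 difference.

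The deepest P3 deficits were on probes whose WT ratios rose from P1 to P3. On WT E17.5 replicate 2, but not replicate 1, these probes had also been high, as given below. Z00047655-1 stood at 0.00 on both WT P1 arrays, at 4.87 and 4.72 at P3 and at 6.55 and 6.38 at P5, and was back to 0.24 and 0.50 in adults. Its Tabby ratios were -0.10 and -0.11 at P1, -0.18 and -0.15 at P3, 0.79 and 0.96 at P5, and 0.61 and 0.34 in adults. The genotypes did not overlap at P3 or P5 and met again in adults. The P3 difference was -4.96 (SE 0.65, adjusted p = 0.00311), a 31.1-fold deficit, and the WT rise from P1 to P3 was 4.79 (SE 0.65, adjusted p = 0.000314).

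A second probe reads at least part of the same sequence. Z00025964-1 shared an exact run of 32 bases with Z00047655-1, of which 30 are printed because they tie the pair together.
Z00047655-1 and Z00025964-1: gaaaatgggacagccttggcttctcttgta
Z00025964-1 measured 5.29 and 5.15 in WT and 0.18 and -0.15 in Tabby at P3, a difference of -5.21 (SE 0.81, adjusted p = 0.0124). At P5 it was 6.22 and 6.09 in WT and 1.40 and 1.74 in Tabby. These 2 probes count as 2 in the set but stand for overlapping sequence.

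A further 3 members were high in WT and not in Tabby at P3. Z00050873-1 was 0.07 and 0.24 on the WT P1 arrays and 4.46 and 4.30 at P3, where Tabby read 0.30 and 0.20 (difference -4.13, SE 0.51, adjusted p = 0.00225). It did not fall back to its P1 level in adults, where WT read 2.35 and 2.92 and Tabby 2.43 and 2.78, so both genotypes overlapped there. Z00052830-1 was 4.18 and 3.80 in WT and 0.24 and 0.12 in Tabby at P3 (difference -3.81, SE 0.30, adjusted p = 2.75e-05), and all 4 adult arrays lay between 0.25 and 0.59. Z00024865-1 was 3.77 and 3.53 in WT and 0.20 and 0.09 in Tabby at P3 (difference -3.50, SE 0.49, adjusted p = 0.00508). At P1 it had been higher in Tabby, at 1.16 and 0.90, than in WT, at 0.52 and 0.35, without overlap, but that difference did not pass the test (0.59, SE 0.49, adjusted p = 1.0). At P5 the Tabby arrays of these members were above their own P3 values without overlap, at 1.06 and 1.23, at 0.71 and 0.74, and at 0.80 and 0.89, far below the WT values of 4.85 to 5.84.

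**Figure D3:**
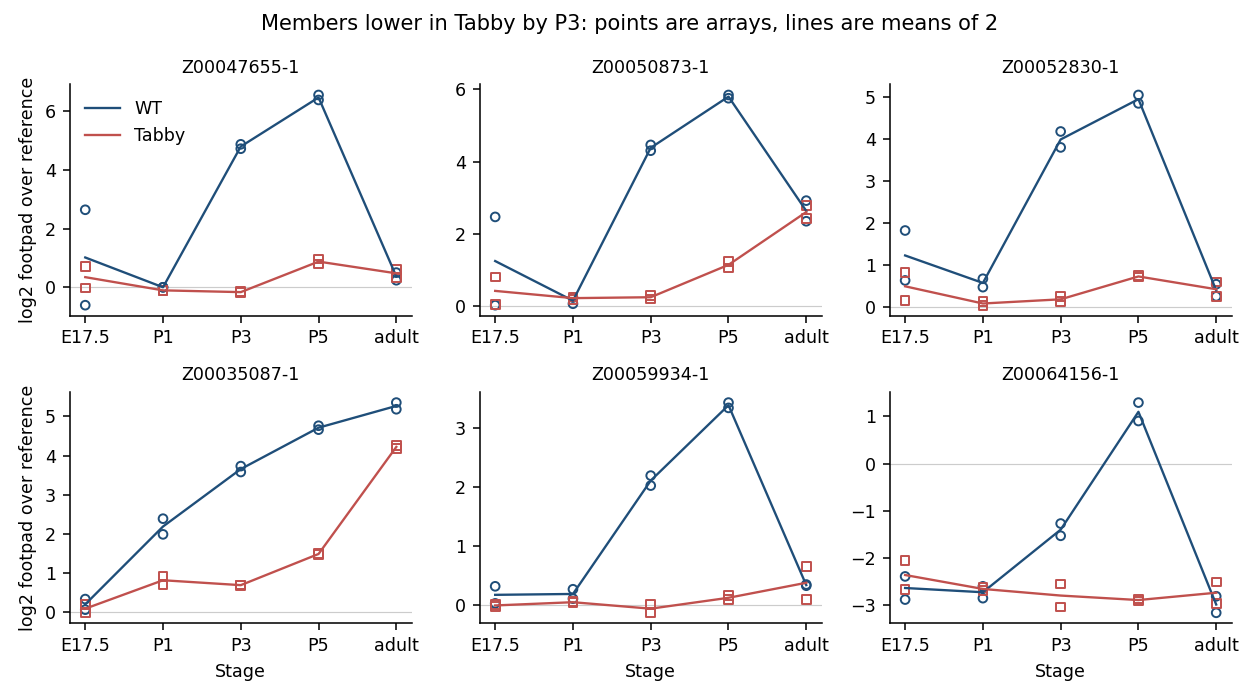
Log2 ratio of footpad over reference by stage for 6 members lower in Tabby at P3, with 1 point per array (WT circles, Tabby squares) and lines through the means. WT rises by P3 and is higher at P5 in each panel, and the Tabby arrays lie below the WT arrays at both stages.

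Z00035087-1 was the member called lower in Tabby at P1. Its WT ratios were higher at each stage, from 0.07 and 0.34 at E17.5 to 1.99 and 2.39 at P1, 3.73 and 3.58 at P3, 4.76 and 4.66 at P5, and 5.18 and 5.35 in adults. Tabby read 0.20 and -0.01, then 0.92 and 0.72, then 0.69 and 0.70, then a mean of 1.49 at P5, and 4.26 and 4.18 in adults. The genotypes overlapped at E17.5 and at no later stage. It had the smallest adjusted p of the set at P3 (difference -2.96, SE 0.13, adjusted p = 1.17e-07) and its P1 difference was -1.37 (SE 0.13, adjusted p = 0.000401). The P1 call was not made with the scanner software's ratios, the deposited table, the P1 arrays alone or the replicate number as a block. On this scale its adult difference was -1.05, outside the limit it met in the scanner software's ratios (-0.34).

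Z00022365-1 was alike in that adult WT ratios were its highest, at 3.89 and 4.06, with Tabby at 1.14 and 1.94. Its adult difference was -2.43 here but -0.48 by the rule, just inside the limit. These 2 members were the only ones of the 120 with an adult difference of -0.5 or less on the scale used here. Its genotypes were apart without overlap from E17.5, at 0.51 and 0.57 in WT and -0.08 and -0.03 in Tabby, but that difference did not pass the test (-0.60, SE 0.18, adjusted p = 0.433). At P1 WT read 0.85 and 0.79 and Tabby -0.14 and -0.21, and that difference did not pass either (SE 0.18, adjusted p = 0.132). Tabby was above background on no array of these stages. At P3 Z00022365-1 was 2.16 and 1.93 in WT and 0.37 and 0.17 in Tabby (difference -1.78, SE 0.18, adjusted p = 0.000316).

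Some members appeared in WT footpads and stayed dim in Tabby. Z00059934-1 was 2.19 and 2.02 in WT at P3 and 3.43 and 3.34 at P5, and was above background on none of the 8 Tabby arrays before adulthood. At P3 the difference was -2.17 (SE 0.14, adjusted p = 4.85e-06). By its footpad signal against the dimmest signals above background on each Tabby array, it was at least 3.84-fold lower at P3. At P5 its ratio means differed 9.67-fold. Z00064387-1 was 1.51 and 1.52 in WT and -0.04 on both Tabby arrays at P3 (adjusted p = 0.00128), at least 2.59-fold lower. In adults it was above background in both genotypes and they overlapped, at 1.43 and 1.74 in WT and 2.03 and 1.23 in Tabby. Z00059873-1 was 0.73 and 0.56 in WT and 0.00 on both Tabby arrays at P3 (difference -0.64, SE 0.09, adjusted p = 0.00491), and was above background on no array outside WT P3 and P5. In all, 25 members were above background on neither Tabby P5 array, and for 6 of these the Cy3 bound lay above the fold of their ratio means, so no range of bounds is given.

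Z00025178-1 and Z00064156-1 shared 50 of their 60 bases and gave near-equal values. At P3 Z00064156-1 was -1.27 and -1.53 in WT and -3.04 and -2.55 in Tabby (difference -1.39, SE 0.24, adjusted p = 0.0259), where Z00025178-1 differed by -1.37 (SE 0.22, adjusted p = 0.0136). At P5 Z00064156-1 was 1.29 and 0.90 in WT and -2.87 and -2.91 in Tabby, without overlap. Before P3 and in adults its arrays of both genotypes lay between -3.16 and -2.06.

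Of the 21 members, 5 did not pass the test for a WT rise from P1 to P3: Z00047261-1, Z00022936-1, Z00076777-1, Z00010489-1 and Z00021082-1. Z00047261-1 was already high at P1 in both genotypes, at 3.55 and 3.49 in WT and 3.28 and 3.12 in Tabby. WT kept 3.47 and 3.43 at P3, while Tabby fell to 1.17 and 1.11 (Tabby P3 minus P1 -2.06, SE 0.36, adjusted p = 0.00206). Z00022936-1 did not pass the test for a WT change from P1 to P3 (0.13, SE 0.13, adjusted p = 0.581) and fell in Tabby by 0.44 (SE 0.13, adjusted p = 0.0442). Its P3 ratios were 1.91 and 2.02 in WT and 0.66 and 0.92 in Tabby (difference -1.17, adjusted p = 0.0011). Z00031896-1 read 0.00 and -0.24 in WT and -1.13 and -1.10 in Tabby at P3 (difference -0.99, SE 0.14, adjusted p = 0.00464), below its E17.5 values of 1.05 and 1.02 in WT, and it had risen in WT from P1 by 0.83 (SE 0.14, adjusted p = 0.00109).

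From P1 to P3, 31 of the 120 members rose in WT (25.8%), against 9.69% of all probes tested, and 7 fell, against 7.77% of all probes. In Tabby, 2 members rose (1.67%), against 7.97% of all probes, and 9 fell, against 6.26%. The 2 were Z00052972-1 and Z00022924-1, and both also rose in WT. Among the 21 members lower in Tabby at P3, 16 rose in WT, none rose in Tabby and 2 fell in Tabby. The P3 arrays that picked the 21 also form these changes, so the split itself favours a WT rise and no Tabby rise. Among the other 99, 15 rose in WT and 7 fell, and 5 of those 7 also fell in Tabby. The WT count fell without WT P3 replicate 1, and the share of all probes called fell with it. Without any 1 of the Tabby P1 or P3 arrays, the Tabby count and the share of all probes called both fell. Such fits have 1 array left in a group.

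The difference between the genotypes was larger at P3 than at P1 by a test of that change itself in 3 members (2.5%), against 0.0187% of all probes tested. Z00052830-1 changed by -3.32 (SE 0.42, adjusted p = 0.016), Z00059934-1 by -2.03 (SE 0.20, adjusted p = 0.00206) and Z00035087-1 by -1.59 (SE 0.18, adjusted p = 0.00769). For Z00047655-1 the change was -4.85 with an SE of 0.92 (adjusted p = 0.367). The scanner software's ratios and the fit with the replicate number as a block called none of the 3, and no other probe in this direction. The P1 and P3 arrays alone called 12 members, against 0.0467% of all probes. The number called was 1 without Tabby P1 replicate 1, WT P3 replicate 1 or either Tabby P3 array, and 7 without either WT E17.5 array, whose spread enters the shared error.

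At P1, Z00035087-1 was the 1 member of 120 lower in Tabby (0.833%), against 0.0342% of all probes, and none was higher. The number was 3 without either Tabby E17.5 array and 2 without either Tabby adult array. At E17.5 limma called no member, against 0.0125% of all probes, and 22 members had an unadjusted p under 0.05 in either direction, against 11.5% of all probes. Of these, 15 were lower in Tabby, against 5.9% of all probes. Without Tabby E17.5 replicate 1 the count was 21, but 15.9% of all probes were then called, with only the Tabby array of narrow range left, and without WT E17.5 replicate 1 it was 4.

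The E17.5 arrays of one genotype did not agree for the members with the deepest P3 deficits. Z00047655-1 was -0.61 on WT replicate 1 and 2.64 on WT replicate 2. Z00025964-1 was -0.01 and 3.82, Z00050873-1 was 0.03 and 2.47, Z00024865-1 was -0.20 and 2.18, and Z00052830-1 was 0.63 and 1.82. These 5 of the 21 members (23.8%) were at least 1 log2 unit higher on WT replicate 2, as were 2 of the other 99 (2.02%) and 15 of all 32124 probes tested (0.0467%). The limit of 1 unit was chosen after the values had been seen. On Tabby replicate 1 they read 0.71, 1.87, 0.81, 0.66 and 0.82. In 4 of the 5, all but Z00052830-1, that was at least 0.5 above WT replicate 1. High and low arrays thus crossed the genotypes at E17.5.

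**Figure D4:**
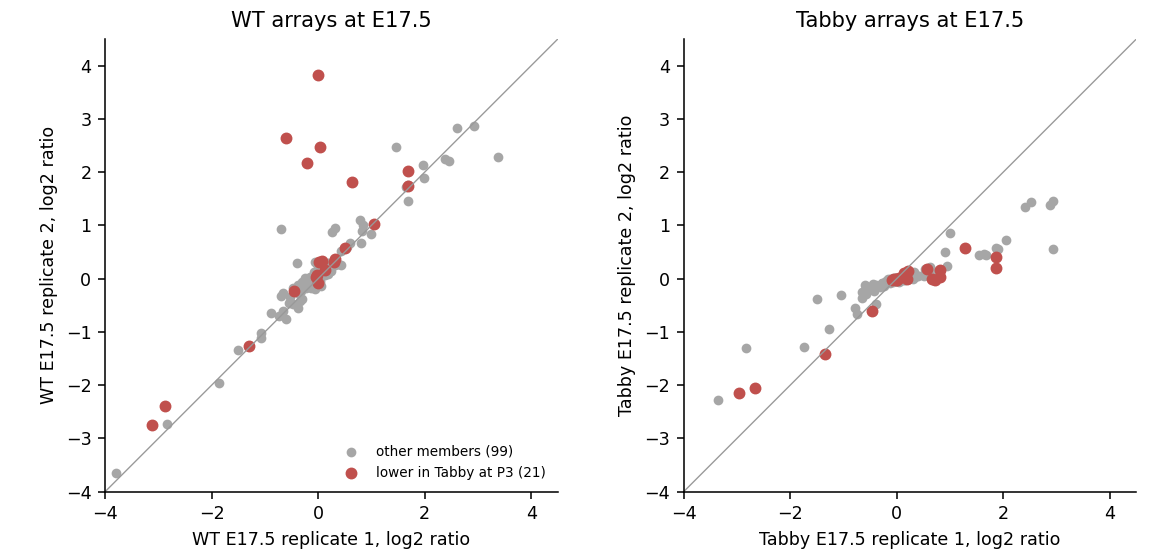
Replicate 2 (vertical) against replicate 1 (horizontal) at E17.5 for WT and Tabby, as log2 ratios of footpad over reference, with 1 point per member and the line of equality. In WT, 5 of the 21 members lower in Tabby at P3 lie at least 1 unit above the line, and in Tabby the values of replicate 2, the array with an interquartile range of 0.50, span less than those of replicate 1.

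Of the 12 members rich in cysteine codons, none was among the 21 lower in Tabby at P3, and whether that differs from the rest of the set was not tested. From P1 to P3 none rose in either genotype, 1 fell in WT and 2 fell in Tabby. The lowest P3 difference was that of Z00022477-1, at -2.61 and -2.70 in WT and -3.45 and -3.10 in Tabby, without overlap (difference -0.62, SE 0.15, adjusted p = 0.166). Their median difference was -0.01 at E17.5, -0.02 at P1 and -0.03 at P3, and -1.74 at P5, the stage that chose them. Z00045261-1 was 0.00 and -0.14 in WT and -0.16 and -0.15 in Tabby at P3 (difference -0.08, SE 0.13, adjusted p = 0.938). At P5 it was 4.12 and 3.86 in WT and 0.61 and 0.39 in Tabby, and in adults all 4 arrays lay between -0.29 and -0.23. Z00076571-1 was 4.25 and 4.11 in WT and a mean of 1.18 in Tabby at P5. Z00028279-1 was 3.74 and 3.59 in WT and 1.09 and 0.81 in Tabby. On these 3 probes, which share sequence, both Tabby P5 arrays also lay above both Tabby P3 arrays. The same held for 7 of the 12 and for 38 of the 120 members. The share over all probes was not counted, and each stage was on a slide of its own. These counts therefore do not show a Tabby rise in this group.

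Z00056322-1, which ends in a stop codon, was -0.11 and -0.09 in WT at P3 and 3.58 and 3.38 at P5. Tabby read 0.11 and 0.07 at P5, and in adults all 4 arrays lay between 0.03 and 0.29. Z00060912-1 was 2.82 and 2.61 in WT and 0.31 and 0.47 in Tabby at P5. The 5 probes with the shared 11-base run thus had 1 course: their WT ratios lay between -0.66 and 0.59 up to P3, between 2.61 and 4.25 at P5 and between -0.56 and 0.22 in adults.

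Z00025984-1, whose cysteine codons are interspersed with glycine codons, did not return. It was 0.83 and 0.74 in WT and 1.05 and 1.23 in Tabby at P3, with Tabby higher without overlap (difference 0.35, SE 0.16, adjusted p = 0.507). This was the highest P3 difference of the 120 members. At P5 it was 3.99 and 3.73 in WT and 1.33 and 1.32 in Tabby, and in adults 3.01 and 3.30 in WT and 3.50 and 3.19 in Tabby. The Tabby adult arrays therefore reached the adult WT values. Of the 6 members not yet given values in this group, Z00044245-1 was 1.39 and 1.23 in WT and 0.24 and 0.06 in Tabby at P5, and Z00066950-1 was 1.02 and 1.01 in WT and 0.09 and 0.01 in Tabby. The other 4, Z00022477-1, Z00077679-1, Z00026339-1 and Z00072150-1, differed by between -0.97 and -0.49 at P5.

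**Figure D5:**
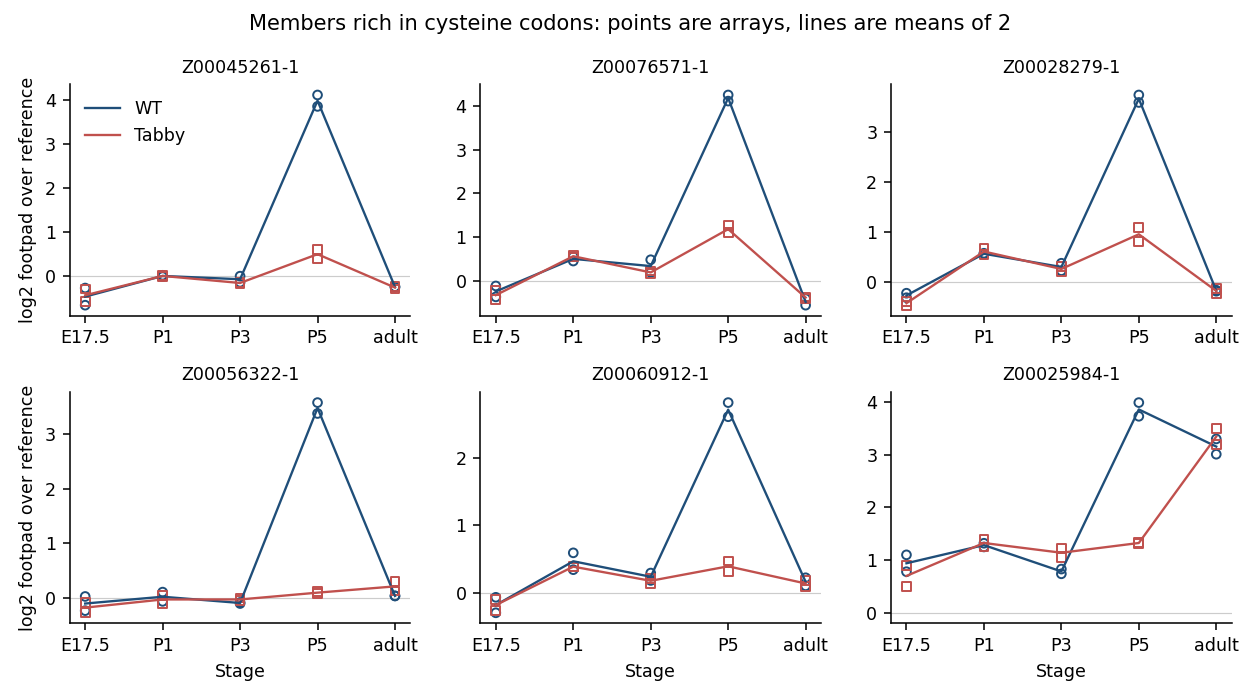
Log2 ratio of footpad over reference by stage for the 6 members with 6 or more cysteine codons and the largest P5 deficits, with 1 point per array (WT circles, Tabby squares) and lines through the means. The genotypes lie apart at P5 in each panel, and Z00025984-1, with Tabby slightly above WT at P3, is high in both genotypes in adults.

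Outside the set, 110 probes had 5 or more cysteine codons, of which 85 were above background on both WT P5 arrays. Their median P5 difference was -0.03, which the rule favoured by taking out those with a deficit, and 2 of them were at -0.5 or less: Z00043790-1 at -0.71 and Z00072045-1 at -0.69. The former had an adult difference of -3.52 in the scanner software's ratios, which the rule does not admit. Z00057680-1, which is no member, shared 28 bases with the member Z00077679-1 but differed by -0.01 at P5, where Z00077679-1 differed by -0.59.

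A further pair of P5 probes had no cysteine repeat. Z00041252-1 and Z00064696-1 shared a run of 19 bases, shown because both had the same course.
Z00041252-1 and Z00064696-1: gacctgctttcccattgca
Z00041252-1 was -0.04 and -0.05 in WT and -0.08 and -0.21 in Tabby at P3 (difference -0.10, SE 0.15, adjusted p = 0.936). At P5 it was 3.96 and 3.85 in WT and 0.04 and -0.06 in Tabby, and its adult arrays lay between -0.19 and -0.05. Z00064696-1 was 4.16 and 4.00 in WT and 0.51 and 0.34 in Tabby at P5, with a P3 difference of -0.15 (SE 0.17, adjusted p = 0.886).

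By the rule's own ratios, the 10 most negative P5 differences included members described above, Z00047655-1 (-5.44), Z00041252-1 (-5.07), Z00059934-1 (-4.67) and Z00064156-1 (-4.61). The WT P5 signal of Z00047655-1 was at least 79040, against 551.4 for Z00053387-1. Z00053387-1 led with -6.38. It was 2.65 and 2.27 in WT at P5 and above background on neither Tabby array, so it was at least 4.35-fold lower. Z00056665-1 (-6.10), Z00053032-1 (-6.09) and Z00056321-1 (-5.67) were above background on the 2 WT P5 arrays and on no other of the 20. They were at least 3.04-fold, 3.68-fold and 4.12-fold lower in Tabby. Z00055556-1 (-5.01) was 1.68 and 1.48 in WT and -0.38 and -0.41 in Tabby at P3, at least 3.74-fold lower, but its P3 difference did not pass the test (-1.98, SE 0.51, adjusted p = 0.191). Its adult arrays disagreed within each genotype, at -0.46 and 1.67 in WT and 1.38 and -0.02 in Tabby. Z00023495-1 (-4.70) had an earlier WT and Tabby signal: it fell from P1 to P3 by 0.85 in WT (SE 0.10, adjusted p = 0.000118) and by 0.74 in Tabby (SE 0.10, adjusted p = 0.00041). At P5 WT read a mean of 1.53 (SD 0.04, n = 2) and Tabby 0.15 and 0.13.

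The largest fall before P5 in both genotypes was on Z00022669-1, by 3.21 in WT and 3.53 in Tabby from P1 to P3. The highest P3 differences after that of Z00025984-1 were 0.18 on Z00070083-1, 0.17 on Z00044245-1 and Z00027965-1, and 0.16 on Z00072150-1, and none passed the test. The adjusted p of these 5 was between 0.507 and 0.849. Z00027965-1 was 0.77 and 1.18 in WT and 0.86 and 1.32 in Tabby at P5, so it had no deficit on this scale.

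Values near the limits of the rule differed little across them. Just inside the P5 limit were Z00034344-1 at -1.02 and Z00045450-1 and Z00052972-1 at -1.01, and just outside were Z00064982-1, Z00005714-1 and Z00031013-1 at -0.99. For the WT P5 signal, Z00028411-1, Z00054470-1 and Z00006481-1 had 105.6, 103.6 and 102.7, and Z00044743-1, Z00049275-1 and Z00050777-1, left out, had 98.3, 96.5 and 91.5. For the adult difference, Z00049938-1 and Z00052403-1 at -0.44 and Z00022365-1 at -0.48 were inside, and Z00070024-1 at -0.50, Z00055104-1 at -0.52 and Z00076944-1 at -0.60 were outside.

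Apart from Z00022365-1 and Z00035087-1, the adult differences lay above -0.5, as the choice on the scanner software's scale favoured. Some adult arrays disagreed within a genotype. Z00023825-1 was 6.56 on Tabby adult replicate 1 and 0.14 on Tabby adult replicate 2, against 0.28 and 0.22 in WT. Its P3 ratios of 0.55 and 0.41 in WT and -0.17 on both Tabby arrays could not be called, since that 1 array gave it an SE of 1.24. Z00043839-1 was likewise 2.65 and 0.54 on the Tabby adult arrays, against 0.54 and 0.99 in WT.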

How the data were processed

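The scanner files hold spot intensities of both channels, the log10 ratio of Cy5 over Cy3 and flags, which the authors' scans produced with Feature Extraction 9.5.1.1 per the file headers. The processed intensities were background-subtracted and dye-normalized by that software, per the file headers. The deposited value table, used as an alternative, is on a log10 scale. In 64.4% of the probes compared, it differed from the scanner software's ratio of footpad over reference by a near-constant amount across arrays. In the rest the table departed more from such a constant. The authors' centring of the table is not given in the sources used here. Its column medians ran from 2.53 to 2.59, and it gave tested values for 85 of the 120 members.

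The rule was applied to the scanner software's log ratios, turned to footpad over reference, multiplied by 3.322 and averaged over spots of a probe. For tests, mean signals were corrected with normexp (offset 50) and normalized within arrays by loess in limma 3.58.1 (R 4.3.3). A probe was tested if at least 2 of 20 arrays had its Cy3 spot well above background (32124 of 42006). A model with a coefficient for each of the 10 groups was fitted to all 20 arrays (10 residual degrees of freedom), with two-sided moderated tests and Benjamini-Hochberg adjustment over all probes. Each value is a mean of 2 arrays, which limits its precision. The labels call the replicates biological but do not say whether they came from separate animals, so p-values may measure technical spread. Between 64.7% and 72.1% of probes were well above background on each array. Scripts were tested on simulated data.

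Bounds ("at least") compare the Cy3 signal of the bright group with the mean of, per dim array, the higher of the probe's own signal and the dimmest signal above background. They come from single channels without dye swaps and are open to dye bias.

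The members, lists and tests were chosen with earlier results of these data known. Members were named if they were among the 10 most negative at P5, the 10 smallest adjusted p at P3, the 5 highest P3 differences, the 5 largest WT rises, or the 3 on either side of each limit. Further members were named after their values were seen, for their sequence, a call or a discordant array. The planned marker lists could not be applied, since the probes carry no gene names. Shared runs of at least 18 bases were searched between members and all probes on the given strand. Alternatives covered background correction, normalization, channel, spread, filter, array weights, replicate block and each array left out. Leaving out P5 and adult arrays from the rule was added after the data were seen. Between the 2 genotypes, replicate differences by number correlated at 0.091, 0.04, -0.072, 0.131 and 0.224 from E17.5 to adult. These low values do not exclude that the numbers pair the arrays, and the main fit used no pairing.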

Additional observations from a re-analysis of the deposited data

Results flagged for a closer look

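For 3 members the difference between genotypes changed from P1 to P3 by the test of that change itself (limma, adjusted p from 0.00206 to 0.016). The change in Tabby minus WT was -3.32 for Z00052830-1, -2.03 for Z00059934-1 and -1.59 for Z00035087-1. None of the 3 was called with the scanner software's ratios or with the replicate number as a block. Those settings called no other probe of the array in this direction either. Z00035087-1 differed at P1 already, by -1.37, whereas Z00059934-1 was above background on no P1 array and read 0.10 and 0.26 in WT and 0.05 and 0.03 in Tabby there. With 2 arrays in a group, no array could be tested as an outlier.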

How the results depend on the processing

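The 21 members lower in Tabby at P3, against 0.221% of all probes tested, became 32 with no background subtraction, against 0.875%. They became 45 with array weights, against 5.6%, and 29 with the P3 arrays alone, against 0.741%. The other settings that kept all arrays, apart from the replicate block, gave 18 to 24 members, against 0.167% to 0.938% of all probes. The members called were not all the same. Of the 18 with the scanner software's log ratios, 13 were among the 21, and of the 23 with the deposited table, 15 were. Of the 21, 3 were called under every setting with a value, Z00059934-1, Z00064387-1 and Z00052830-1, 12 were not called under 1 to 5 settings and 6 under 6 or more, up to 14 for Z00074580-1. Leaving out 1 array gave counts of 6 to 27.

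The number called at P1, 1, was 2 with the scanner software's log ratios, scale normalization or the Cy3 channel alone, 4 with no background subtraction or the deposited table, and 3 with array weights, and 1 to 3 when 1 array was left out. Over all probes, the settings that gave 2, 3 or 4 with all arrays kept called between 0.0374% and 0.403% at P1. The scanner software's log ratios, the deposited table and the P1 arrays alone called other members than Z00035087-1. At E17.5 it was 1 with the scanner software's log ratios, 2 with the deposited table, and 0 to 21 with 1 array left out. The WT rise ranged from 19 to 37 with 1 array left out. For the 2 members that rose in Tabby, 7.97% of all probes tested were called. They became 6 with the scanner software's log ratios (10.2% of all probes) or the deposited table (13.5%). With no background subtraction (12.2%) or Cy3 alone (7.26%) there were 4, and with scale normalization (2.97%) 1. With only the stages compared (14.1%) or array weights (16.6%) there were 7. The count also changed in some fits with 1 array left out. The 3 members with a larger difference at P3 than at P1 became 0 with the scanner software's log ratios, 7 with no background subtraction, 1 with scale normalization, 6 with the deposited table, 12 with only the stages compared and 5 with array weights, and 1 to 7 with 1 array left out. Over all probes, those settings that kept all arrays called between 0% and 0.0917% for this larger difference. The causes were not tested.

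With the replicate number as a block within stage, 14 members were lower in Tabby at P3, 0 at P1 and 0 at E17.5. In that fit 31 rose in WT, 5 rose in Tabby, and 0 had a larger difference at P3. Over all probes tested, the shares in the same order were 0.14%, 0.0156%, 0.00934%, 9.18%, 7.64% and 0%. The block is no evidence of pairing. Whether same-numbered arrays were paired is not known, since low correlations do not exclude it.

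The rule gave 74 members with normexp and loess ratios, 61 of them shared with the 120, and 73 with a P5 limit of -1.5. It gave 106 with an adult limit of -0.25, 88 with a signal minimum of 200, and 108 to 168 when a P5 or adult array was left out. Signal over background limits the 25 members above background on neither Tabby P5 array.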
